A study of Mus musculus with 14 samples.

Results

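A set of 7 genes from 2 small protein families was followed through sorted cells of a mouse breast cancer model: the S100 genes S100a4, S100a6, S100a10, S100a11, S100a8 and S100a9, and Lgals1, which encodes galectin-1. They were taken by name, with earlier results of these data known. All 7 were found among the 10210 genes of the natural killer (NK) cell table and among the 12235 genes of a table of cancer-associated fibroblasts.

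The mice were BALB/c females, and the tumours came from 100000 GFP-expressing 4T1 cells, a mouse mammary carcinoma line, placed in the lower left mammary fat pad at 8 weeks of age. Bulk 3' end RNA libraries were made from NK cells of healthy spleens (n = 3), of spleens from tumour-bearing mice (n = 4) and of the tumours themselves (n = 4), and from a fibroblast subset of the tumours named sCAF (n = 3). The NK cells were sorted on CD45 and NKp46 after removal of cells positive for GFP, EPCAM, CD3, CD31 or CD14, and the sCAFs were whatever lacked EPCAM, GFP, CD45, CD31 and PDPN, so that the sCAF gate carried no positive marker. Tumours were digested with collagenase A and DNase for 20 min at 37 °C, and spleens were instead crushed and kept in red cell lysis for 5 min on ice, so tissue and preparation cannot be told apart in any tumour comparison. The study's stated question was the transcriptional state of NK cells within such tumours, with sCAF genes that might bear on where NK cells go and stay. The labels call the libraries independent replicates and do not say whether 1 library is 1 mouse or a pool.

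S100 proteins are small calcium-binding proteins of the EF-hand type that mostly work as dimers. Inside cells they bind and steer partners such as annexins, myosin and cytoskeletal proteins. Several are also released and then act on receptors such as RAGE (Ager) and TLR4. S100A4 and S100A6 are linked to cell motility and proliferation, S100A10 holds annexin A2 at the plasma membrane, and S100A11 pairs with annexin A1. S100A8 and S100A9 form calprotectin, the main cytosolic protein of neutrophils and a product of monocytes. Galectin-1 binds galactose-containing sugar chains on glycoproteins such as CD7, CD43 and CD45 and is known as a dampener of lymphocyte responses.

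The libraries held 559688 to 1966963 counts in the NK table and 1318067 to 2230475 in the sCAF table. Levels are given as CPM, counts relative to a fixed library total: on TMM effective library sizes for NK cells and on library totals for sCAFs, whose table is separate. Taking 3 counts as the limit, a count of 0 allowed up to 1.525 to 5.36 CPM in the NK libraries, which covers counting error only. This limit is on library totals and not on TMM effective sizes. The 12 NK markers summed to 23098 to 29378 CPM in tumour NK libraries and to 31072 to 35029 CPM in spleen NK libraries, and Ncr1, the gene of NKp46, stood at 717 to 915 CPM in tumour NK cells. The sCAF libraries went partly against their label. Their 12 carcinoma and epithelial markers summed to 3588 to 4652 CPM, led by Krt18 at a mean of 2515 CPM, above the 12 fibroblast markers at 1555 to 3125 CPM, led by Sparc at 1011 CPM. In the sCAF libraries Epcam lay at 5.83 to 27.3 CPM and the defining fibroblast gene Col1a1 at 46.2 to 81.8 CPM, and the part of carcinoma transcripts in sCAF values was not tested.

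In the mm10 genome (GRCm38, GENCODE M21) the 6 S100 genes lie in 2 blocks of chromosome 3. The first block runs from S100a4 (chr3:90603771-90606045, plus strand) over S100a6 (chr3:90612882-90624181, plus) and S100a8 (chr3:90668978-90670035, plus) to S100a9 (chr3:90692632-90695721, minus). S100a11 (chr3:93520488-93526287, plus) and S100a10 (chr3:93555080-93564643, plus) lie 2824766 bases further on, separated from each other by 28792 bases. Lgals1 is on chromosome 15 (chr15:78926725-78930465, plus). S100a4 and S100a6, each the nearest of the 7 to the other in its pattern over NK libraries, are 6836 bases apart. The promoters of these neighbours are printed below, with that of S100a11, which fell in tumours against tumour-bearing spleens. They are RefSeq windows of build GRCm38.p6, from 250 bases before to 50 bases after each gene's start, found for 5 of the 7 members, and they come from the reference strain and not from BALB/c. Capitals mark matches to 4 motifs searched on both strands: TATAAA (the core of the TATA element), TGANTCA (AP-1 type), CACGTG (E-box) and GGGCGG (GC box).
S100a4 (chr3:90603520-90603819, plus): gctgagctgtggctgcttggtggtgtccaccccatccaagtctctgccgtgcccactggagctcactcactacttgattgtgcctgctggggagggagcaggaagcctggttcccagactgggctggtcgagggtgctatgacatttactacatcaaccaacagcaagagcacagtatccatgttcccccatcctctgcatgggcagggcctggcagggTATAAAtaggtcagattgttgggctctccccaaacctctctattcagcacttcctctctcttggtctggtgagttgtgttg
S100a6 (chr3:90612644-90612943, plus): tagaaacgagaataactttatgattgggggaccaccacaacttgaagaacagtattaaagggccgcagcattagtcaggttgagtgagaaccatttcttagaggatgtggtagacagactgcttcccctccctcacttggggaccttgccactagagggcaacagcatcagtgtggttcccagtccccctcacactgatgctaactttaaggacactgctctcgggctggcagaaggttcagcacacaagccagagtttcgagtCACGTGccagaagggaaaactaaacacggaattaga
S100a11 (chr3:93520246-93520545, plus): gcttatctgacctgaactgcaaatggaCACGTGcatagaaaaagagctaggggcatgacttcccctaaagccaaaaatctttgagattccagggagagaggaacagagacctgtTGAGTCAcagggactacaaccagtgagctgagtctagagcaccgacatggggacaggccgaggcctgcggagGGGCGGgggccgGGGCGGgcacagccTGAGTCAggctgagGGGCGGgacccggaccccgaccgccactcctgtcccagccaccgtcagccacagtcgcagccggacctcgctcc
Counted from 1 at the left end, S100a4 held TATAAA at position 220. S100a6 held CACGTG at position 265 and none of the other 3 motifs. S100a11 held CACGTG at 28, TGANTCA at 115 and 213, and GGGCGG at 187, 199 and 227, with no match overlapping another. TATAAA was also found for S100a8 and S100a9, at positions 221 and 251 of their windows. Among 32851 mouse promoters of the same length, 13.6% held TATAAA, 7.81% TGANTCA, 7.15% CACGTG and 35.7% GGGCGG. The matches are descriptions of these letters only.

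The 7 genes did not move as a block between NK groups. Against NK cells of tumour-bearing spleens, tumour NK cells had more S100a4, S100a8 and S100a9 RNA and less S100a10, S100a11 and Lgals1 RNA, and S100a6 did not pass the test. This made 6 of 7 genes called at an adjusted p under 0.05, where 29.0% of the 8471 genes tested were called (15.8% higher and 13.2% lower). In 6 of 7 the libraries of both groups did not overlap, against 29.7% of all genes. All p-values of NK groups come from 1 edgeR quasi-likelihood fit of the 11 NK libraries, adjusted by Benjamini-Hochberg over all 8471 genes. S100a8 and S100a9 entered that test only through their tumour counts, so these 2 had to differ. This leaves S100a4, S100a10, S100a11 and Lgals1 among the called genes. The 7 genes were chosen with earlier results of these data known, so setting their counts beside all genes does not test the set. Against healthy spleens 5 of 7 were called, where 30.5% of genes were: S100a4, S100a6, S100a8 and S100a9 with more RNA in tumours and S100a10 with less. Again 5 of 7 did not overlap, against 34.8% of genes. In a test against a minimum of 1.5-fold in place of 0, 793 of 8471 genes were called against tumour-bearing spleens. Of the members only S100a8 and S100a9 were, the 2 that had to differ. The other genes lost their calls (adjusted p = 0.0976 for S100a4, 0.156 for Lgals1, 0.425 for S100a11 and 0.558 for S100a10). Both comparisons use the same 4 tumour libraries and are not independent. The median log2 fold change of the 7 genes was 0.33 against tumour-bearing spleens and 1.11 against healthy spleens, beside 0.00 and 0.02 over all genes. In bulk RNA, fewer cells that carry a transcript and less of it per cell cannot be told apart.

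**Figure D1:**
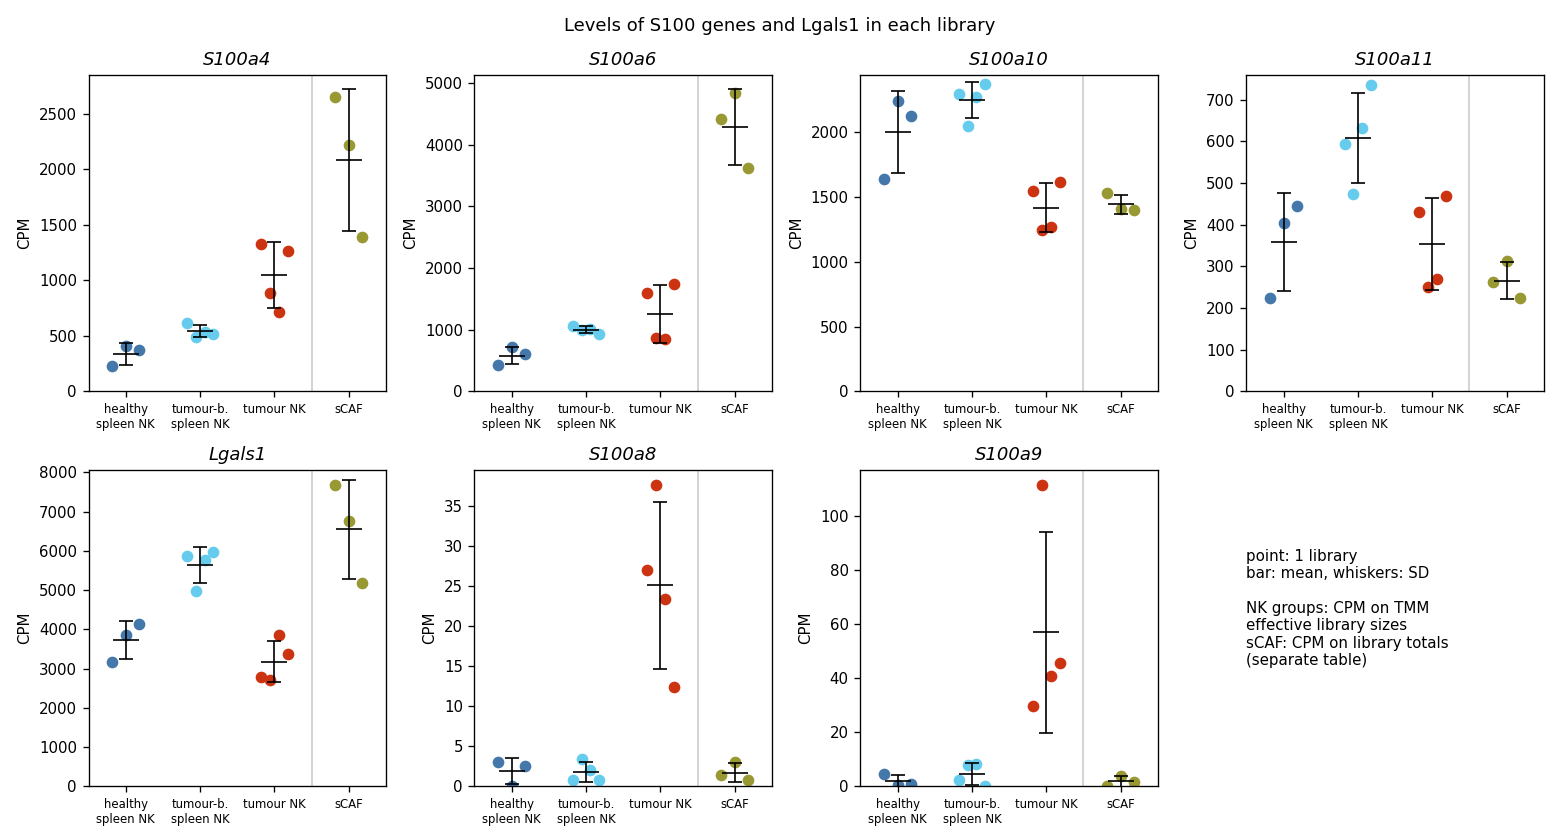
CPM of the 7 genes in each library (points) with group mean and SD (bar and whiskers) for the 3 NK groups and, right of the line, sCAFs from their separate table; "tumour-b." stands for tumour-bearing, and each vertical axis is linear from 0. Tumour NK cells lie above both spleen groups for S100a4 (717.9 to 1331 CPM), S100a8 and S100a9 and below both for S100a10 (1248 to 1613 CPM).

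S100a4, which binds non-muscle myosin and is linked to motility, rose in tumour NK cells. It stood at 1331, 888.3, 717.9 and 1268 CPM in tumour libraries 1 to 4. In tumour-bearing spleens it stood at 617.4, 493.4, 534.8 and 520.7 CPM, and in healthy spleens at 225, 409.3 and 375.5 CPM. The 3 groups did not overlap at any point, in the order healthy spleen, tumour-bearing spleen, tumour. The log2 fold change was 0.96 (SE 0.20, adjusted p = 0.00164), or 1.94-fold, against tumour-bearing spleens. Against healthy spleens it was 1.63 (SE 0.23, adjusted p = 3.15e-05), or 3.09-fold. A further gene model, Gm42674, overlaps S100a4 on the same strand and was in neither table. How reads over both were counted is not known, so S100a4 counts are uncertain to that extent.

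S100a6 (calcyclin), a gene of growing cells, had a mean of 1262 ± 470.4 CPM in tumour NK cells (SD, n = 4). The tumour values of 1593, 859.3, 856.2 and 1739 CPM lay on both sides of those of tumour-bearing spleens, at 1068, 999.1, 1013 and 930.8 CPM. The difference of 0.33 on the log2 scale (SE 0.22, 95% interval -0.14 to 0.80, adjusted p = 0.286) did not pass the test. All 4 tumour libraries were above the healthy spleens at 429.9, 712.7 and 601.7 CPM, by 1.11 (SE 0.25, adjusted p = 0.00288), or 2.16-fold. That call was lost with the replicate number as a block (0.84, adjusted p = 0.109), and also with a minimum of 1.5-fold (adjusted p = 0.0518).

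The tumour libraries were themselves split. Libraries 1 and 4 held more S100a4, S100a6, S100a10 and S100a11 than libraries 2 and 3. A first principal component of 4625 other genes over the 4 tumour libraries, with 44.1% of the variance, placed libraries 1 and 4 at 10.5 and 9.49 and libraries 2 and 3 at -9.37 and -10.6. Lgals1, with its highest tumour value in library 3, and S100a9, with its highest in library 2, did not follow that order. Beside these differences, markers of some other cells also differed between tumour and spleen NK libraries. The 3 listed of 12 carcinoma and epithelial markers (Cdh1, Spint2 and Epcam) summed to 113.9, 92.74, 63.73 and 113.1 CPM in tumour libraries 1 to 4, to 17.3 to 33.3 CPM in tumour-bearing spleens and to 13.9 to 26.8 CPM in healthy spleens, with Epcam at 0 in healthy spleens and at 1.2 to 7.38 CPM in tumours. The 2 listed of 8 dendritic cell markers (H2-Ab1 and Zbtb46) summed to 130 to 170 CPM in tumours, 34 to 69.4 CPM in tumour-bearing spleens and 18.5 to 42.9 CPM in healthy spleens. Pecam1, the 1 listed of 8 endothelial markers, stood at 139 to 202, 74.8 to 94.2 and 41.6 to 80.9 CPM in the same groups. Other lists did not share this rise over both spleen groups. In the same order, the 3 listed T cell markers summed to 64.7 to 106, 99.4 to 149 and 43.1 to 79.2 CPM. The 2 listed B cell markers summed to 4.35 to 23.4, 8.37 to 15.9 and 19.3 to 25.6 CPM. The 4 listed fibroblast markers summed to 7.25 to 41, 5.34 to 18.4 and 9.08 to 24.1 CPM. The part of the tumour libraries' split and of these markers in the members' values was not tested.

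On a list of annexins, S100 partners and other genes such as Capg and Plp2, Capg and Anxa5 rose and Anxa6 fell. Of the 16 genes on this list, 13 were tested. Against tumour-bearing spleens 2 were higher, 1 was lower and 10 were not called, with a median log2 fold change of 0.23. Of all genes 29.0% were called in that comparison. The partners Myh9 and Cacybp were among those not called. Levels of these and the following genes are given as group means, in tumour-bearing spleen NK cells and then in tumour NK cells. Myh9, the myosin heavy chain bound by S100A4, went from 426 to 497 CPM (0.23, adjusted p = 0.266). Cacybp, named for its binding to S100A6, had a log2 fold change of -0.34 (adjusted p = 0.289). Capg, a capping protein of actin filaments, rose from 116 to 365 CPM (1.66, SE 0.17, adjusted p = 2.93e-07). Anxa5, a binder of phosphatidylserine, rose from 53.4 to 89.8 CPM (0.75, SE 0.15, adjusted p = 0.000837). The calcium-binding Sri (sorcin) and the membrane protein gene Plp2 had log2 values of 0.32 and 0.38 and were not called. Against healthy spleens 4 of the 13 were higher (Capg, Anxa5, Myh9 and Plp2) and none was lower, at log2 fold changes of 2.63, 0.63, 0.55 and 1.01. Of all genes 30.5% were called in that comparison, a share near that of this list.

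S100a10, the annexin A2 ligand also called p11, fell in tumour NK cells. It stood at 1545, 1248, 1266 and 1613 CPM in the 4 tumour libraries. In tumour-bearing spleens it stood at 2296, 2049, 2272 and 2369 CPM, and in healthy spleens at 1638, 2240 and 2125 CPM. Every tumour library was below every spleen library, with healthy spleen 1 closest, whereas the spleen groups overlapped. The log2 fold change was -0.66 (SE 0.15, adjusted p = 0.00217) against tumour-bearing spleens, a 1.58-fold lower level. Against healthy spleens it was -0.50 (SE 0.16, adjusted p = 0.0231). The latter call was lost without healthy library 2 (-0.41, adjusted p = 0.131), without healthy library 3 (-0.45, 0.0774), without tumour library 2 (-0.44, 0.068) and with the replicate block (-0.60, 0.0733).

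S100a11, the partner of annexin A1, fell in tumour NK cells against tumour-bearing spleens and did not pass the test against healthy spleens. Its tumour values were 429.6, 250.7, 268.8 and 467.8 CPM, all below the 593.8, 473.3, 632.6 and 734.1 CPM of tumour-bearing spleens. Healthy spleens, at 225, 404 and 445.7 CPM, spanned nearly the same range as tumours. The log2 fold change was -0.78 (SE 0.24, adjusted p = 0.026) against tumour-bearing spleens, a 1.71-fold lower level. Against healthy spleens it was -0.03 (SE 0.26, 95% interval -0.59 to 0.53, adjusted p = 0.952). The call rested on several libraries: adjusted p became 0.0543 without tumour-bearing spleen library 3, 0.0662 without library 4 of that group, and 0.0677 and 0.0657 without tumour library 2 or 3. The 3' end of S100a11 is nearly identical to that of the pseudogenes Gm12854 and Gm7665, in neither table, so its counts are uncertain to that extent.

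Neither of the annexins that pair with these subunits passed the test. Anxa2 stood at 1509 and 1408 CPM (-0.10, adjusted p = 0.615). Anxa1 stood at 393 and 460 CPM (0.23, adjusted p = 0.239). Ahnak, a giant scaffold protein bound by the annexin A2 and S100A10 complex, had a log2 fold change of 0.01 (adjusted p = 0.97), which turned to -0.09 with upper-quartile scaling. Anxa6 was lower (-0.42, SE 0.14, adjusted p = 0.0281), and Anxa4 (0.42), Anxa7 (-0.01) and the intermediate filament gene Vim (0.09, -0.02 with upper-quartile scaling) were not called.

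**Figure D2:**
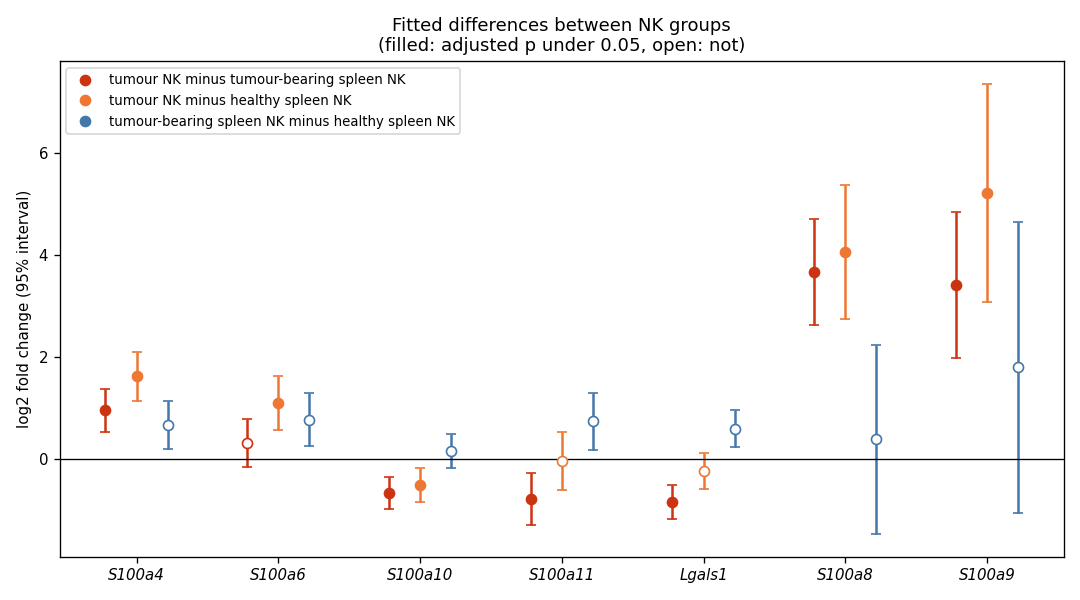
Fitted log2 fold changes of the 7 genes with 95% intervals for the 3 NK comparisons; filled points passed an adjusted p under 0.05. S100a4, S100a8 and S100a9 are above 0 in both tumour comparisons, S100a10 is below 0 in both, and no point of the spleen comparison is filled. S100a8 and S100a9 entered the test only through their tumour counts and had to differ.

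Lgals1 was by 3' counts the most abundant of the 7 genes in every NK library and fell in tumour NK cells against tumour-bearing spleens. It stood at 2794, 2711, 3843 and 3364 CPM in tumours. It stood at 5861, 4976, 5764 and 5973 CPM in tumour-bearing spleens, where it was the 9th or 10th gene of each library, and at 3179, 3856 and 4131 CPM in healthy spleens. Tumour-bearing spleens lay above all others, and tumours and healthy spleens overlapped. The log2 fold change was -0.83 (SE 0.16, adjusted p = 0.000521) against tumour-bearing spleens, a 1.78-fold lower level. Against healthy spleens it was -0.23 (SE 0.17, 95% interval -0.58 to 0.13, adjusted p = 0.328).

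Among other galectin and galectin-related genes, Lgals3, Lgals3bp and Lgalsl rose where Lgals1 fell. Of 9 on the list, with Lgals3bp and Lgalsl counted among them, 5 were tested. Of these, 3 were higher in tumour NK cells than in tumour-bearing spleens and none was lower, with a median of 1.11. Of all genes 29.0% were called in that comparison, 15.8% higher. Lgals3, a galectin that can form multimers, rose from 324 to 1085 CPM (1.75, SE 0.15, adjusted p = 2.7e-08), and stood at 176 CPM in healthy spleens. Lgals3bp, a secreted glycoprotein bound by galectin-3, rose from 203 to 602 CPM (1.57, SE 0.17, adjusted p = 5.43e-07). Lgalsl, a galectin-like gene, rose from 11.7 to 25.7 CPM (1.11, SE 0.31, adjusted p = 0.0107). The galectin genes Lgals8 (0.04, -0.06 with upper-quartile scaling) and Lgals9 (0.20) were not called, so Lgals3 was the only other galectin itself that was. Of 12 further S100 genes, with S100pbp (S100P binding protein) counted among them, 4 were listed for NK cells and 3 tested. S100a13, which takes part in unconventional secretion, fell from 652 to 433 CPM (-0.59, SE 0.15, adjusted p = 0.00649). S100a1, known from muscle, had a log2 value of -0.28 (adjusted p = 0.16, and 0.0494 with upper-quartile scaling), and S100pbp had one of -0.09. S100a14 was listed and too low to be tested.

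Receptors for released S100 proteins and for galectin-1 moved in both directions. Of 14 on the list 11 were tested, and 2 were higher and 4 lower in tumour NK cells than in tumour-bearing spleens, with a median of -0.25. Of all genes 29.0% were called in that comparison and 30.5% in the comparison with healthy spleens. Of the higher receptor genes, Nrp1 passed the filter only through its tumour counts and had to differ, which leaves Itgb1. Against healthy spleens Itgb1 and Nrp1 were again higher, Itgam, Itgb2, Spn and Cd2 (-0.68, adjusted p = 0.00152) were lower, and Cd7 was not called (0.10, adjusted p = 0.698). Itgb1 was not called in that comparison with upper-quartile scaling (0.39, adjusted p = 0.0623). Among galectin-1 counterparts, Spn (CD43) fell from 990 to 635 CPM (-0.64, SE 0.16, adjusted p = 0.00437) and Cd7 from 1793 to 1297 CPM (-0.47, SE 0.16, adjusted p = 0.037). Both chains of the integrin Mac-1 fell: Itgam from 399 to 209 CPM (-0.94, SE 0.16, adjusted p = 0.000231) and Itgb2 from 1569 to 801 CPM (-0.97, SE 0.13, adjusted p = 8.59e-06). Itgb1, the beta-1 integrin chain, rose from 276 to 429 CPM (0.64, SE 0.14, adjusted p = 0.00203). Nrp1 (neuropilin-1) had 0 counts in all 7 spleen libraries and 9 to 22 counts in tumour libraries, a mean of 11.8 CPM. Taking 3 counts over the group as the limit for spleens, the tumour mean was 25.2-fold above that of tumour-bearing spleens and 14.6-fold above that of healthy spleens. The error of the tumour mean is left out, so these are not strict lower bounds. Ptprc (CD45, 0.48) and Cd2 (-0.25) were not called against tumour-bearing spleens, nor were the S100 receptors Ager (-0.33), Tlr4 (0.28) and Bsg (-0.10). Ager and Tlr4 had few counts, with means of 6.27 and 5.44 CPM in tumour NK cells.

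**Figure D3:**
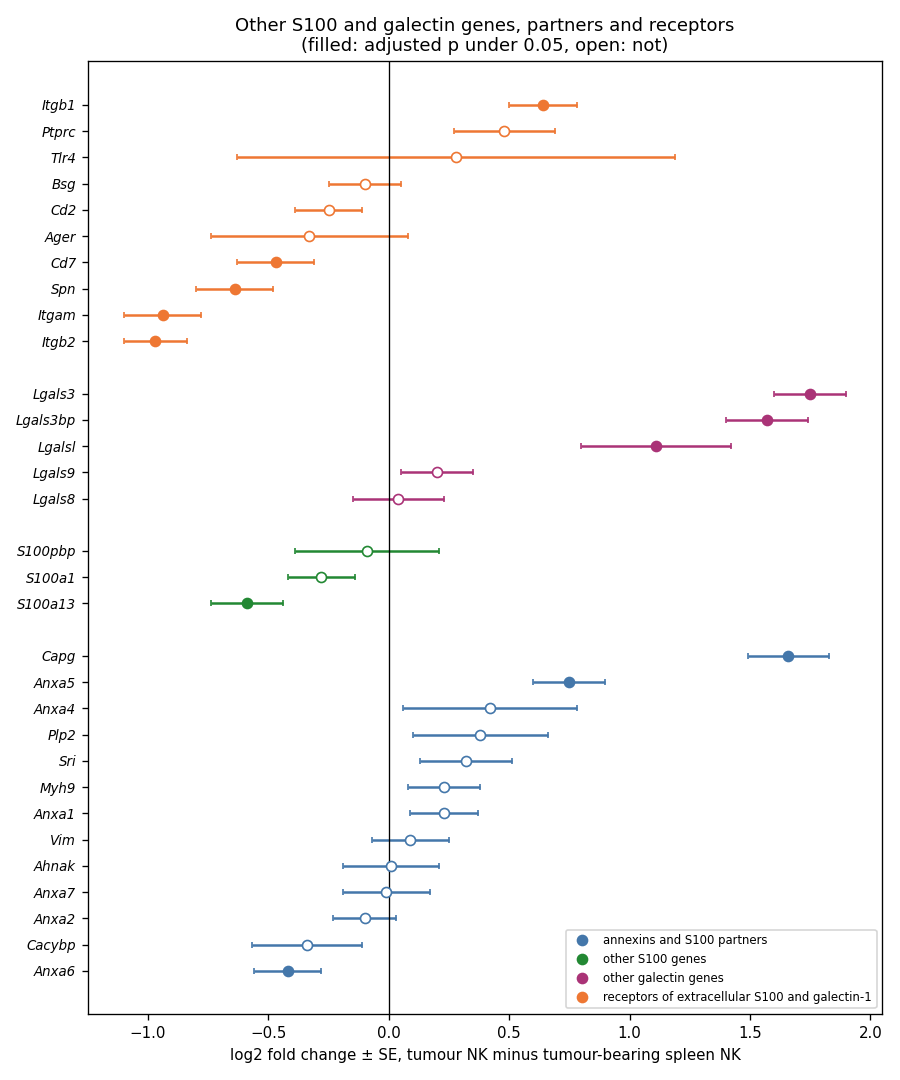
Log2 fold changes with SE, tumour NK minus tumour-bearing spleen NK, for the tested genes of the 4 lists; filled points passed an adjusted p under 0.05, and Nrp1, at 0 counts in all spleens, is not drawn. Lgals3, Lgals3bp and Capg lie furthest to the right and Itgb2 and Itgam furthest to the left.

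S100a8 and S100a9, the calprotectin subunits, were rare in splenic NK cells and higher in tumour NK cells, where S100a9 ranked 1791 to 4923 and S100a8 4249 to 6814 among the 10210 genes. S100a8 had 33, 26, 39 and 13 counts in tumour libraries 1 to 4. It had 1, 6, 4 and 1 in tumour-bearing spleens and 2, 0 and 3 in healthy spleens. S100a9 had 36, 77, 68 and 48 counts in tumours. It had 3, 14, 16 and 0 in tumour-bearing spleens and 3, 1 and 1 in healthy spleens. For both genes the lowest tumour library was above the highest spleen library in CPM, at 12.36 against 3.349 for S100a8 and 29.51 against 8.235 for S100a9. The ratio of summed counts per summed TMM effective library size, tumour to tumour-bearing spleen, was 12.9 for S100a8 (95% counting interval 7.07 to 25.6) and 9.65 for S100a9 (6.68 to 14.4). These intervals pool the libraries of a group and leave out the spread between them. Both genes entered the edgeR test only through their tumour counts and had to differ, so its p-values here are no support for a difference. The fitted log2 fold changes were 3.66 (SE 0.49, adjusted p = 1.32e-05) and 3.42 (SE 0.64, adjusted p = 0.00261). Against healthy spleens, each gene with 5 counts over 3 libraries, they were 4.06 (SE 0.63, adjusted p = 6.09e-05) and 5.21 (SE 0.96, adjusted p = 0.00223). For S100a8 the last comparison moved to 3.14 without healthy library 2 and to 4.74 without healthy library 3. For S100a9 it moved to 6.17 without healthy library 1 and to 4.57 without healthy library 2. S100a9 made up 52.2%, 74.8%, 63.6% and 78.7% of the pair's counts in tumour libraries 1 to 4, with exact (Clopper-Pearson) 95% intervals from 39.8% to 64.4% in library 1 and from 66.3% to 88.1% in library 4 that cover counting error only.

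Marker genes of myeloid cells went in both directions beside this pair. Of 20 neutrophil markers 5 were listed for NK cells. They summed to 97.1 to 144 CPM in healthy spleens, 77.7 to 106 CPM in tumour-bearing spleens and 20.9 to 33.3 CPM in tumours, so the list as a whole was lower in tumours. Most of it was G0s2, at 97.1 to 143 CPM, 77 to 103 CPM and 7.82 to 15.9 CPM in the same order. The other 4, a split made after their values were seen, summed to 0 to 1.65 CPM, 0.723 to 4.63 CPM and 10.7 to 20.4 CPM. Among these Retnlg, a defining neutrophil gene, had 0 counts in all spleen libraries and 3 to 15 counts in tumours, and Ngp had means of 0 CPM in healthy spleens, 1.33 CPM in tumour-bearing spleens and 0.238 CPM in tumours. Of 14 macrophage and monocyte markers 9 were listed, and they summed to 163 to 860 CPM in healthy spleens, 180 to 731 CPM in tumour-bearing spleens and 599 to 1311 CPM in tumours, mostly from Ccr2. Csf1r, which defines macrophages, was at 0 in all spleens and at 0 to 7.22 CPM in tumours, Lyz2 was at 4.1 to 40.3 CPM and Cd14 at 4.75 to 19.2 CPM in tumours. Within tumours the highest S100a8 and S100a9 values were in library 2. The neutrophil sum without G0s2 was 10.66, 17.39, 20.44 and 11.41 CPM in tumour libraries 1 to 4, highest in library 3 and next in library 2. These sums rest on 12 to 34 counts a library, too few to rank the libraries. The part of myeloid transcripts in the S100a8 and S100a9 differences was not tested.

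**Figure D4:**
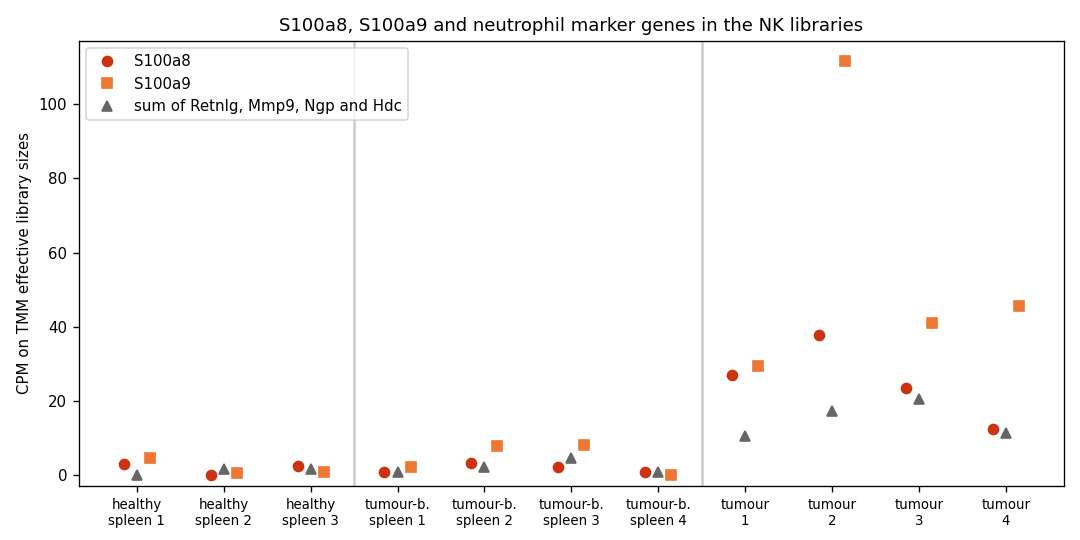
CPM of S100a8, S100a9 and the sum of the neutrophil markers Retnlg, Mmp9, Ngp and Hdc in the 11 NK libraries; G0s2, the listed neutrophil marker with the most counts, is left out and goes the other way (77 to 143 CPM in spleens, 7.82 to 15.9 CPM in tumours). All 3 plotted values are higher in each tumour library than in any spleen library, and the S100a9 value of tumour library 2, 111.6 CPM, is the highest.

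The balance between the 5 abundant genes shifted within libraries, a measure that needs no scaling between them. For each of 10 pairs of genes the log2 ratio of counts was compared between the 4 tumour and the 4 tumour-bearing spleen libraries by a two-sided exact permutation test, with p adjusted over the 10 pairs. All 7 pairs that included S100a4 or S100a6 differed at an exact permutation p of 0.0286, the smallest that 4 against 4 libraries can give (adjusted p = 0.0408). The pairs share genes and are not independent, and the adjusted p is under 0.05 only because 7 pairs tie at that smallest p. In the same libraries S100a4 lay wholly higher in tumours and S100a10, S100a11 and Lgals1 wholly lower. The ratios of S100a4 to these genes therefore had to separate, and their p-values are no further support. No share over all gene pairs was taken, so 7 of 10 does not set these genes apart from others. S100a4 gained on S100a6 by 0.66: the ratio was -0.26, 0.05, -0.25 and -0.46 in tumours and -0.79, -1.02, -0.92 and -0.84 in tumour-bearing spleens. S100a4 gained 1.59 on S100a10, 1.73 on S100a11 and 1.76 on Lgals1. The ratio of S100a6 changed by 0.93 to S100a10, 1.07 to S100a11 and 1.09 to Lgals1. The level of S100a6 itself changed by 0.33 and did not pass the edgeR test. Those of the other 3 genes changed by -0.66, -0.78 and -0.83, so these ratios do not show a rise of S100a6. None of the 3 pairs among S100a10, S100a11 and Lgals1 passed the test. S100a10 against S100a11 changed by 0.15 (exact permutation p = 0.371, adjusted 0.444). S100a10 against Lgals1 changed by 0.17 (exact permutation p = 0.4, adjusted 0.444) and S100a11 against Lgals1 by 0.02 (exact permutation p = 0.943).

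**Figure D5:**
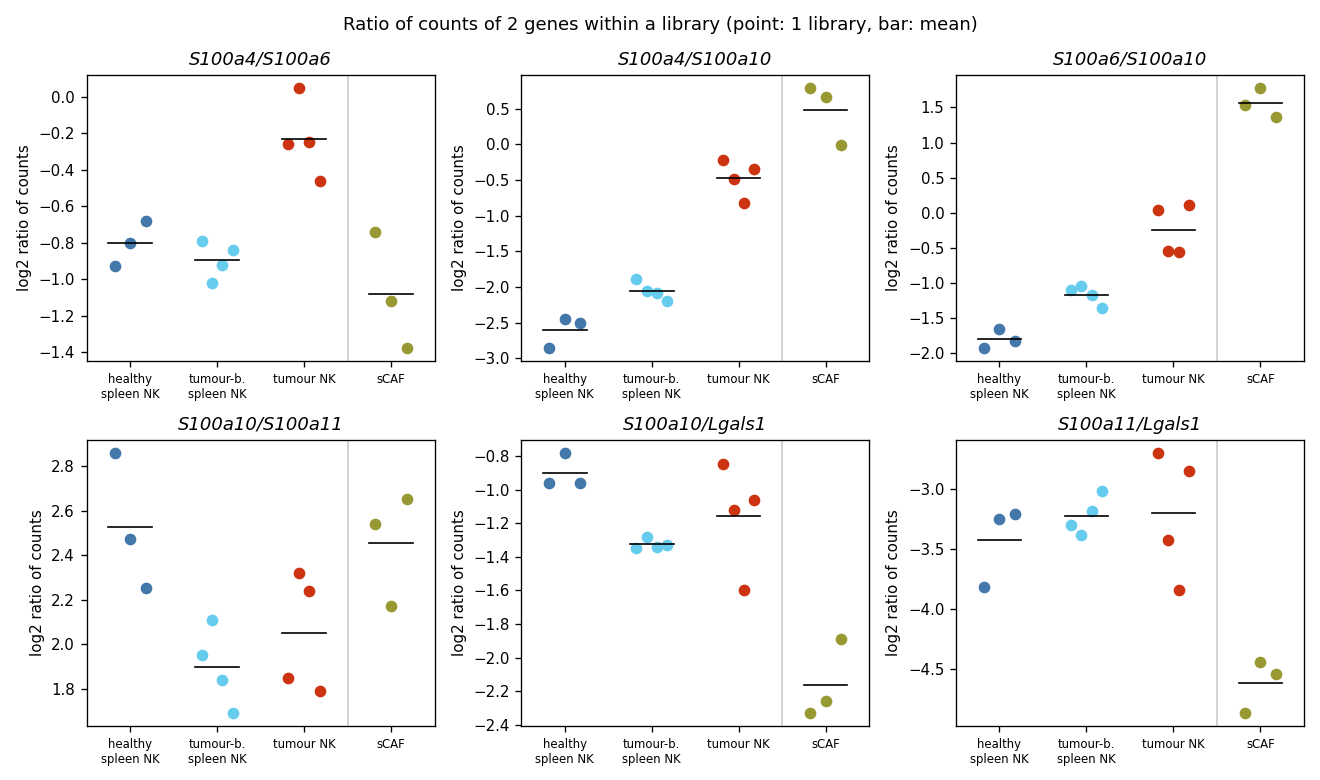
Log2 ratio of the counts of 2 genes within each library (points, with the group mean as a bar) for 6 of the 10 pairs; sCAFs are right of the line. Tumour libraries lie above all spleen libraries for S100a4/S100a6, S100a4/S100a10 and S100a6/S100a10 and overlap those of tumour-bearing spleens for the 3 pairs of S100a10, S100a11 and Lgals1.

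Between tumour-bearing and healthy spleens none of the 7 genes was called in NK cells. Compared with healthy spleens, S100a4 differed by 0.67 (adjusted p = 0.174), S100a6 by 0.78 (0.153), S100a11 by 0.75 (0.23) and Lgals1 by 0.60 (0.0954), and for these 4 no library of one group overlapped the other. S100a10 differed by 0.17 and S100a9 by 1.80. S100a8 had no settled direction: its fitted difference was 0.40 (SE 0.88), its group means were 1.723 CPM in tumour-bearing and 1.853 CPM in healthy spleens, and the fitted value was -0.52 without healthy library 2 and -0.10 without tumour-bearing library 2. The edgeR test called 0 of 7, with 4 at an unadjusted p under 0.05, and DESeq2 called 1, Lgals1, at an adjusted p of 0.00836. Over all genes 1.58% were called (1.23% higher and 0.354% lower) and 12.2% did not overlap. The 7 spleen libraries fell on 2 sides of a first principal component that was computed within groups and without the members and held 68.3% of the variance: healthy library 1 and tumour-bearing libraries 1 and 2 on side A, and the other 4 on side B. The sides were read from these same libraries, with healthy library 1 the only healthy one on side A. P-values that use the side therefore hold only given that split. With the side as a term, 4 of the 7 were called higher, where 8.34% of genes were called and 5.35% were called higher. These were S100a4 (0.72, adjusted p = 0.000761), S100a6 (0.82, 2.69e-05), S100a11 (0.88, 5.57e-06) and Lgals1 (0.64, 0.000689). The relatives Lgals3 and S100a1 were also called higher without that term, at 0.87 (adjusted p = 0.00603) and 0.78 (adjusted p = 0.0126), and so was Capg (0.97, adjusted p = 0.0123).

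The sides also bore on tumour comparisons. Set against side A spleens alone, S100a11 lost its call (-0.59, adjusted p = 0.0575) in the comparison with tumour-bearing spleens. Side A held 1 healthy library, so against it values are given without a test: S100a6 differed by 1.54, S100a10 by -0.22 and S100a9 by 3.48 from tumour NK cells. Against side B alone, S100a9 lost its call in the comparison with tumour-bearing spleens (3.43, adjusted p = 0.0618).

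In sCAFs the order of the genes was different. Lgals1 stood at 7690, 6765 and 5181 CPM, the 4th to 8th gene of its library, and S100a6 at 4422, 4838 and 3621 CPM, the 12th to 20th. S100a4 stood at 2647, 2222 and 1388 CPM, S100a10 at 1528, 1409 and 1397 CPM and S100a11 at 262.7, 312.6 and 223 CPM. S100a8 had 3, 4 and 1 counts and S100a9 had 0, 5 and 2. The 7 genes made up 1.46% ± 0.25 (SD, n = 3) of sCAF counts, 0.681% ± 0.0843 (n = 4) in tumour NK cells, 1.01% ± 0.0434 (n = 4) in tumour-bearing spleens and 0.744% ± 0.0737 (n = 3) in healthy spleens.

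For a comparison of levels without a test, CPM was recomputed over the 9215 genes that both tables list. On that scale sCAFs had 2.18 times the S100a4 of tumour NK cells (means 2266 and 1038 CPM), 3.76 times the S100a6 (4670 and 1242) and 2.27 times the Lgals1 (7116 and 3130). S100a4 and S100a6 in each sCAF library exceeded every NK library, while Lgals1 in sCAFs, from 5693 CPM, overlapped spleen NK cells, which reached 6432 CPM. S100a10 (1572 and 1399 CPM) and S100a11 (289 and 349 CPM) overlapped between sCAFs and tumour NK cells. Tumour NK cells had 13.5 times the S100a8 and 29.6 times the S100a9 of sCAFs. The sCAF values rest on 8 and 7 counts over 3 libraries, so these ratios are rough. In all, 5 of 7 genes did not overlap, against 63.4% of shared genes. In sCAFs S100a16 stood at 68.7 CPM, S100a13 at 93.4 CPM, S100a1 at 64.9 CPM and Lgals3 at 1191 CPM. S100a7a, S100a14 and S100b had at most 6 counts in a library. Anxa2 stood at 1660 CPM, Anxa1 at 1275 CPM and Vim at 9225 CPM.

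The genes most like each member over the 11 NK libraries were found by the root mean square difference of log2 CPM centred on the gene's mean, among 8256 genes. This is a description, and the libraries share group and side. For S100a4 they were Eif4a1, a translation initiation helicase, and Trim46 (both 0.22, where the median gene was at 0.81). For S100a6 they were Manf, a protein of the endoplasmic reticulum, and the cytokine gene Osm (both 0.19, median gene 0.66). For S100a10 they were Commd6 (0.08) and Mien1 (0.09), and for Lgals1 the mitochondrial ribosome gene Mrpl34 and the chaperone Fkbp4 (both 0.13). For S100a11 they were Banf1 (0.18), which binds DNA at the nuclear envelope, and the kinase gene Csnk2a1 (0.20). For S100a8 they were Iigp1, an interferon-inducible GTPase (0.45), and Abcb1b, a drug efflux pump (0.67). For S100a9 they were the immediate early gene Nr4a2 (0.78) and Cd83 (0.81), closer than S100a8 at 0.92. Among the members S100a4 and S100a6 were nearest to each other (0.33), as were S100a10 and Lgals1 (0.24).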

How the data were processed

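Counts per gene symbol were deposited in 2 tables, for 11 NK and 3 sCAF libraries. Per the submitters' processing notes, bcl2fastq, STAR 2.4.2a, HTSeq and mm10 were used. The annotation, strand setting, use of molecular identifiers and filter on low genes are not given in the sources used here. Every gene of the NK table reached 6 counts in at least 1 library. In each header 2 names were joined by spaces, and their columns were assigned by position. In edgeR 4.0.16 (R 4.3.3) genes were kept by filterByExpr, scaled by TMM and tested by quasi-likelihood with the group as the only term, at an adjusted p under 0.05 by Benjamini-Hochberg; a script tested on simulated data did this. CPM are 3' end counts, with no scaling by gene length. Alternatives were DESeq2 1.42.0, other scalings, no filter, a 1.5-fold minimum, each library left out, a replicate block and spleen sides. Named genes are the members, their relatives, the tested genes of 2 partner and receptor lists, defining markers and the 2 genes most like each member. Members and lists were chosen with earlier results of these data known.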

Additional observations from a re-analysis of the deposited data

How the results depend on the processing

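Counts of called members held within 1.5 times in most settings. Against tumour-bearing spleens 2 of 7, both higher, remained past a minimum of 1.5-fold, where 793 of 8471 genes did. These were S100a8 and S100a9, which entered the test only through their tumour counts. Against healthy spleens there were 3 with that minimum, 3 with a replicate block and 2 with side A spleens only, where 1 healthy library leaves no check. Between spleens 1 was called by DESeq2, 1 with a replicate block (S100a6, 0.84, adjusted p = 0.0182) and 4 with the side as a term, a split read from the same libraries. Leaving out 1 library gave 5 to 6, 4 to 5 and 0 to 0 called members in the 3 comparisons. The labels do not say whether equal replicate numbers name 1 mouse. Deviations of same-numbered tumour and tumour-bearing spleen libraries correlated at -0.00109, 0.429, 0.036 and 0.273, not every pair was over 0.1 and tumour libraries 1 and 3 correlated best with another number, so the numbers were not taken to pair the libraries. In that comparison the replicate block gave 2820 called genes, against 2509 in the same 2 groups without it.

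S100a11 against healthy spleens turned to 0.07 and 0.15 without healthy library 2 or 3, to 0.11 and 0.08 without tumour library 2 or 3, and to 0.65 with side A only (range without 1 library -0.28 to 0.15). S100a8 between spleens turned to -0.52 without healthy library 2 and to -0.10 without tumour-bearing library 2 (range without 1 library -0.52 to 1.08). The sCAF level of S100a10 was 1572 CPM over genes both tables list and 1444 CPM on totals, because fewer genes enter. Of the members' fold changes, 109 of 119, 97 of 112 and 91 of 99 values kept direction and side of the threshold in the 3 comparisons. The 7 called ratios kept their sign in every alternative, S100a11 against Lgals1 ran from -0.15 to 0.23, and adding 1 to each count left 7 of 10 pairs called. Without 1 library the ratio test cannot pass 0.05, so those are values only.

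Over all genes, the 2453 called against tumour-bearing spleens became 793 with the 1.5-fold minimum. The 2582 against healthy spleens became 984 with it, 1497 with the replicate block and 1312 with side A only. The 134 between spleens became 30 with the minimum, 42 and 67 without healthy library 2 or 3, and 691 with the side as a term. Upper-quartile scaling moved the median gene by up to -0.10 and gave 1091 higher and 1530 lower against tumour-bearing spleens (1338 and 1115 in TMM), and 1154 and 1569 against healthy spleens (1399 and 1183 in TMM). Where no construction shows it, the cause was not tested. S100a8 and S100a9 were limited by depth in spleens, at 0 to 16 counts a library.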
